A study of Mus musculus with 12 samples.

Results

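The 10 genes described here belong to hepatic nitrogen metabolism and were followed by RNA-seq in mouse liver at 3 ages. They were the urea cycle genes Cps1, Otc, Ass1, Asl and Arg1, the gene of the cycle's activator enzyme, Nags, the amino acid enzymes Sds, Gls2 and Hal, and the adhesion gene Cdh1. They were chosen by name, for their function and their zone in the liver lobule, out of 53465 genes in the count table, and all 10 entered every test between ages. Of the 10, only Arg1 differed between ages at an adjusted p under 0.05, with lower counts in aged than in young livers. This call was not kept by a second test, edgeR, or when some single livers were left out. Cdh1 and Ass1 had their lowest values of the 12 livers in the same aged livers, replicates 3 and 4.

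The livers came from C57BL/6N mice aged 3 months (the young group), 12 months (the middle-aged group) or 18 months (the aged group). Each group held 4 livers, each taken as 1 animal. No genetic alteration or treatment was given for any group, and the study's methods describe male mice fed freely. The labels describe how RNA was prepared from young and old livers only, and the series' design text gives 3 replicates per age where 4 are listed. The study states that its RNA-seq of 3 ages was taken from a public atlas. It also describes RNA-seq of 4 young and 4 old livers from its own cohort. The origin of the 12 libraries is therefore uncertain, and the sex and feeding given by the methods may not apply to them. RNA was from whole tissue, in which fewer cells of a type and less RNA per cell cannot be told apart.

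The liver converts ammonia, which is toxic, into urea. Nags makes N-acetylglutamate, the activator of Cps1, which together with Otc works inside mitochondria, whereas Ass1, Asl and Arg1 work in the cytosol and return ornithine to the start of the cycle. Hepatocytes near the portal vein carry most of this pathway and the enzymes that feed it nitrogen, while hepatocytes around the central vein take up the remaining ammonia by making glutamine.

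Libraries held between 8124312 and 10527159 gene counts. Mitochondrially encoded genes made up 19.2% of these for young replicate 2 and 5.48 to 10.7% for the other 11. The 12 libraries carried synthetic spike-in RNA whose counts fell into 2 groups, here called spike-in sets. No label describes these sets, and they were read from the counts alone. Set A held replicates 1 and 2 of each age and set B replicates 3 and 4. Spike-in counts correlated at 0.997 or higher for libraries of the same set and at 0.925 or lower otherwise. Results are therefore also given within each set. All 6 hepatocyte markers were above 0 at each age, with a summed normalised count of at least 762318 in any liver, whereas the 5 pancreatic acinar markers summed to at most 7.64 in young and 9.03 in aged livers. The 5 erythroid markers summed to between 22967 and 86366 for young, 12815 and 49844 for middle-aged, and 9671 and 21230 for aged livers, and 2 of the 5 were called lower in aged than in young livers. Their part in the results was not tested.

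Levels are given as normalised counts (counts divided by the liver's size factor), and levels of different genes are compared only per kilobase (kb) of exon. Per kb, Ass1 was the highest of the 10 with 18284 ± 2552 (SD, n = 12 livers), followed by Arg1 with 7464 ± 950 and Cps1 with 6060 ± 932. Ass1 lay above Arg1 in 12 of 12 livers with ranges that did not overlap, while Arg1 lay above Cps1 in 10 of 12 livers and their ranges overlapped. A second tier held Gls2 at 1423 ± 226, Otc at 1356 ± 121 and Asl at 1199 ± 172 per kb. In this tier the order of neighbours was not separated by the spread, since Gls2 exceeded Otc in 7 of 12 livers and Otc exceeded Asl in 10 of 12. Hal followed at 699 ± 112, below Asl in every liver. Nags, at 260 ± 36.1, and Sds, at 250 ± 66.5, could not be ordered, with Nags above Sds in 7 of 12 livers. Cdh1 was lowest at 61.0 ± 32.6 per kb. Together, the 6 genes of the cycle and its activator held 1.13% ± 0.109 of all gene counts in young livers, 1.22% ± 0.0702 in middle-aged livers and 1.03% ± 0.0481 in aged livers (SD, n = 4 each). The ranges overlapped between young and aged livers and did not overlap between middle-aged and aged livers. All gene counts include the mitochondrially encoded ones, 19.2% of the total for young replicate 2. The shares, their order and their overlap therefore also depend on that load, and shares without it were not computed.

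**Figure D1:**
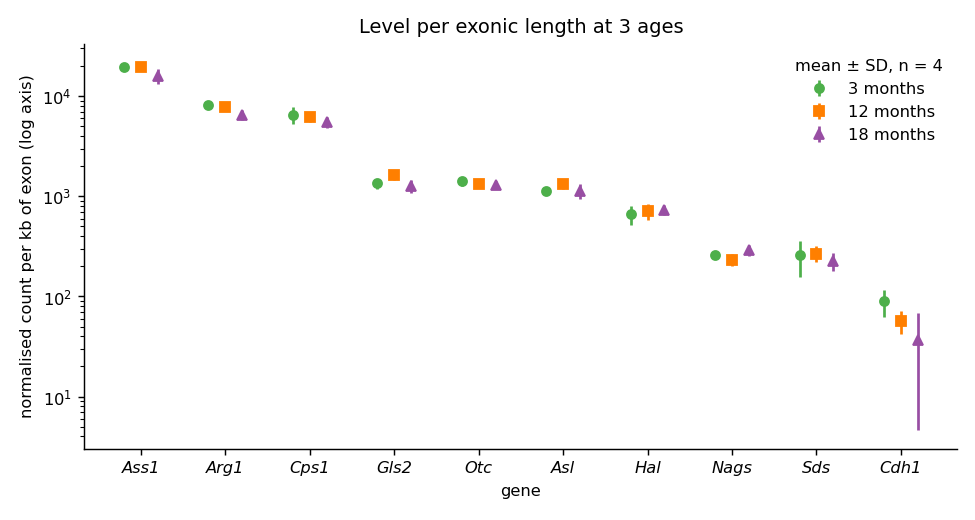
Normalised count per kb of exon (log axis) for the 10 genes at 3, 12 and 18 months; points are means and bars the SD of 4 livers. Ass1 stood highest at every age, and the bar of aged Cdh1 spans most of its mean (36.8 ± 32.2).

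The first question was whether any of these genes differed between aged and young livers. DESeq2's Wald test with Benjamini-Hochberg adjustment over 13527 genes called 1 of the 10 members, Arg1, against a background of 3.58% of all genes in either direction and 1.71% in the lower direction. At an unadjusted p under 0.05 lay 3 of 10 members, beside 15.9% of all genes tested. Aged and young values did not overlap for 2 members, Arg1 and Ass1, both lower in aged livers, where 3.69% of all genes were lower without overlap. The median log2 fold change of the 10 was -0.16, with 7 of 10 below 0, beside a median of -0.00030 over all genes tested. Between middle-aged and young livers DESeq2 called 0 of 10 (background 6.41%), with 2 of 10 at an unadjusted p under 0.05 beside 21.7% of all genes, and edgeR also called 0 (background 2.31%). No member was separated between these ages, where 16.0% of all genes were. The median there was -0.0086 for the members and 0.0065 for all genes. Between aged and middle-aged livers DESeq2 again called 0 of 10 (background 1.14%), with 4 of 10 at an unadjusted p under 0.05 beside 9.94% of all genes, and edgeR called 0 (background 0.107%). Here the members had a median of -0.25 and 8 of 10 were below 0, while all genes had a median of 0.0050. In the likelihood ratio test across the 3 ages 1 of 10 was called, again Arg1, where the background was 6.96%, and edgeR called 0 of 10 (background 1.89%). These comparisons share livers and are not independent of each other.

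**Figure D2:**
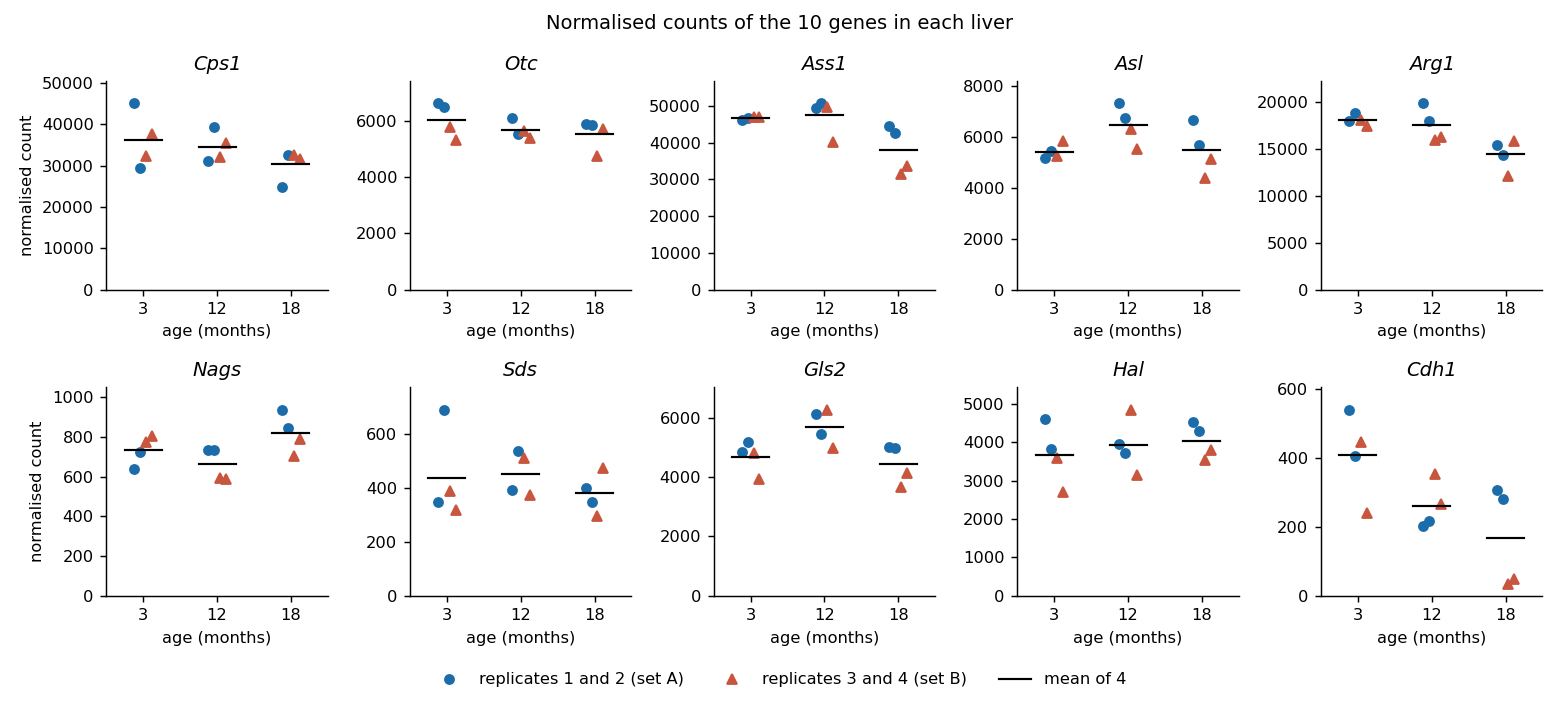
Normalised counts of the 10 genes (vertical axes starting at 0) in each liver at 3, 12 and 18 months; circles are replicates 1 and 2 (spike-in set A), triangles replicates 3 and 4 (set B) and lines the mean of 4. The aged Arg1 values, from 12098 to 15834, lie below all young values, and aged replicates 3 and 4 hold the lowest Ass1 and Cdh1 values of the 12 livers.

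**Figure D3:**
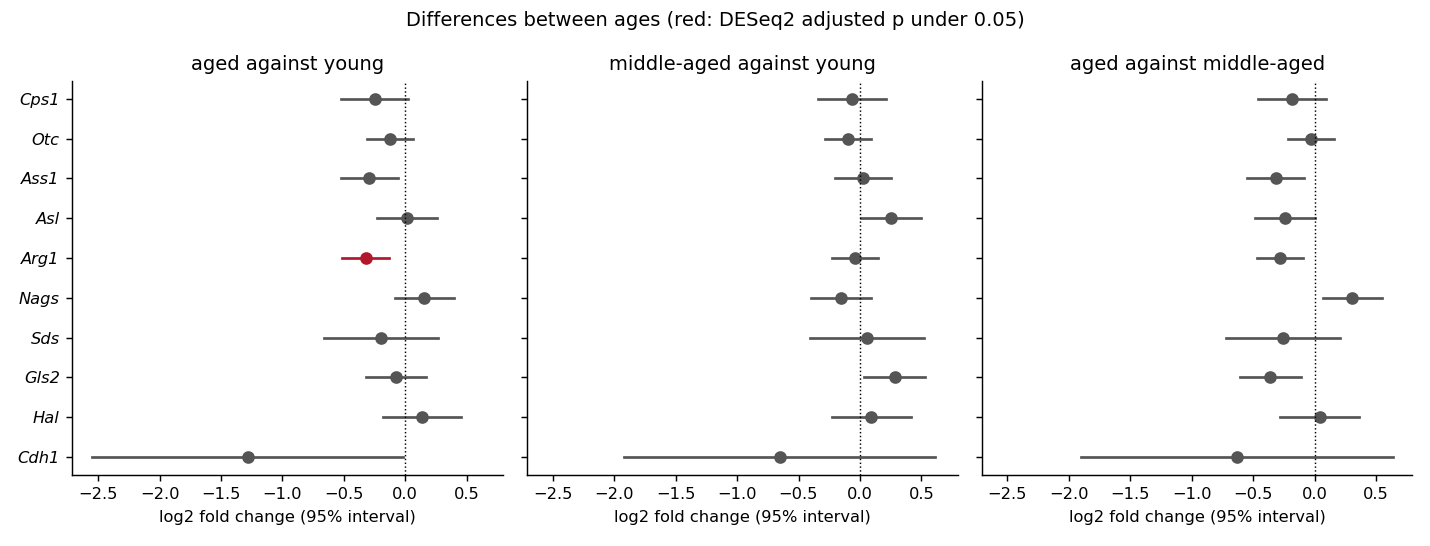
Log2 fold change with its 95% interval for the 10 genes in the 3 comparisons of ages (12 livers in 1 DESeq2 fit); red marks an adjusted p under 0.05. Only Arg1, at -0.32 in aged against young livers, is red, and the Cdh1 intervals are the widest.

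Entry of ammonia into the cycle begins with Nags (chromosome 11, 102145513 to 102149477, GRCm38), which makes the activator of Cps1. Nags counts were 640, 725, 771 and 804 in young replicates 1 to 4, 736, 734, 592 and 585 in middle-aged and 937, 845, 702 and 791 in aged livers. The 3 ages overlapped, with the highest values in aged replicates 1 and 2 and the lowest in middle-aged replicates 3 and 4. Aged livers differed from middle-aged ones by 0.31 ± 0.12 on the log2 scale (SE, DESeq2 adjusted p = 0.276) and from young ones by 0.15 ± 0.12 (adjusted p = 0.604). The latter was 0.084 without aged replicate 1 and 0.094 without young replicate 1. Nags shares 443 exonic bases with an antisense gene, Gm11586, which had at most 1 count in any liver.

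Cps1 (chromosome 1, 67123026 to 67231259) makes carbamoyl phosphate from ammonia and is the first committed enzyme of the cycle. Its counts were 45045, 29344, 32278 and 37699 in young livers, 31083, 39352, 32180 and 35419 in middle-aged livers and 24853, 32497, 32646 and 31572 in aged livers. Young replicate 1 was highest and aged replicate 1 lowest, and the other 10 livers lay in a shared range. The differences, -0.25 ± 0.14 for aged against young (adjusted p = 0.386) and -0.065 ± 0.14 for middle-aged against young (adjusted p = 0.843), did not pass the test, and the interval of the former ran from -0.52 to 0.026. The former was -0.12 without young replicate 1 and -0.16 without aged replicate 1. Across the 12 livers Cps1 and Nags had a Pearson r of -0.50 on log2(normalised count + 1), the lowest of the 45 pairs among the members.

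Otc (chromosome X, 10252305 to 10321024) joins carbamoyl phosphate to ornithine. Its values were the least variable of the 10, with a highest liver 1.40 times the lowest. Counts were 6624, 6489, 5775 and 5310 in young, 6110, 5526, 5626 and 5394 in middle-aged and 5897, 5840, 4735 and 5696 in aged livers. All 3 ages overlapped. In the fit the aged against young difference was -0.13 ± 0.096 with an interval from -0.31 to 0.061 (adjusted p = 0.577), and without aged replicate 3 it was -0.058.

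Ass1 (chromosome 2, 31470207 to 31520672) condenses citrulline with aspartate and so brings in the second nitrogen of urea. Young livers were nearly identical, with 46229, 46801, 47023 and 46920 (CV 0.758%), the smallest spread of any member at any age. Middle-aged livers held 49361, 50739, 49851 and 40165, and aged livers 44586, 42772, 31560 and 33637. Every aged value lay below every young value, while middle-aged replicate 4 fell among the aged ones. The aged against young difference was -0.29 ± 0.12 (adjusted p = 0.152) and the aged against middle-aged difference -0.32 ± 0.12 (adjusted p = 0.207), neither of which passed the test. Without aged replicate 1 both passed, at -0.38 (adjusted p = 0.0147) and -0.40 (adjusted p = 0.0290), in fits that called 10.5% and 1.85% of all genes. Without aged replicate 3 they were -0.21 (adjusted p = 0.452) and -0.24 (adjusted p = 0.410), and without aged replicate 4 -0.24 (adjusted p = 0.408) and -0.26 (adjusted p = 0.629).

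Ass1 has a near-identical processed pseudogene, Gm5424 (chromosome 10, 62071123 to 62072362), to which reads of Ass1 can be assigned. Over the 1239 coding bases of Ass1 both aligned with 99.5% identity, and 6 bases differed. Coding bases 370 to 429 of Ass1 and the matching bases of Gm5424, from GENCODE M21 transcripts, show how few positions can tell them apart, with the 2 that differ in capitals.
Ass1: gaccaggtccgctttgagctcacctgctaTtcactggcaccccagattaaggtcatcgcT
Gm5424: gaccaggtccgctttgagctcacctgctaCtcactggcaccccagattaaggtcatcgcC
Gm5424 counts were 0.377% ± 0.0164 of those of Ass1 in young livers, 0.385% ± 0.0276 in middle-aged livers and 0.385% ± 0.0390 in aged livers (SD, n = 4 each). This share overlapped among the ages.

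Asl (chromosome 5, 130011258 to 130029247) splits argininosuccinate into arginine and fumarate. Its counts were 5162, 5452, 5256 and 5839 in young livers, 7323, 6743, 6320 and 5519 in middle-aged livers and 6683, 5668, 4405 and 5140 in aged livers. Middle-aged replicates 1 to 3 lay above all young values and replicate 4 among them. The middle-aged against young difference was 0.25 ± 0.13 (adjusted p = 0.207), the aged against middle-aged difference -0.24 ± 0.13 (adjusted p = 0.505) and the aged against young difference 0.012 ± 0.13, with an interval from -0.23 to 0.26.

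Arg1 (chromosome 10, 24915221 to 24927484) releases urea from arginine in the last step. Its counts were 17890, 18736, 17994 and 17398 in young livers, 19810, 17970, 15936 and 16265 in middle-aged livers and 15330, 14309, 12098 and 15834 in aged livers. The 4 aged livers were lower than all of the other 8. Arg1 fell by 20.1% from young to aged livers, a log2 fold change of -0.32 ± 0.097 with an interval from -0.51 to -0.13 (DESeq2 adjusted p = 0.0312). Aged against middle-aged livers differed by -0.28 ± 0.097 (adjusted p = 0.145), also without overlap, where 3.28% of all genes were lower without overlap. Across the 3 ages the likelihood ratio test gave an adjusted p of 0.0294. This call was lost with edgeR, with the replicate block, within either set and without any 1 of the 6 livers named next. The aged against young call was not kept by edgeR (log2 fold change -0.32, adjusted p = 0.150, background 1.4%) or within set A (-0.30, adjusted p = 0.742, background 1.24%) or set B (-0.34, adjusted p = 0.114, background 4.22%). It was also lost when any 1 of 6 livers was left out, with adjusted p of 0.0780 without young replicate 1, 0.139 without young replicate 2, 0.112 without young replicate 3, 0.0533 without middle-aged replicate 2, 0.104 without aged replicate 2 and 0.125 without aged replicate 3.

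The genes whose pattern was most like Arg1 over the 12 livers, out of 8873 genes averaging 50 normalised counts or more, were Pdhb (r = 0.915), a subunit of pyruvate dehydrogenase, Etnk2 (r = 0.897), an ethanolamine kinase, and Dgat1 (r = 0.889), which makes triglycerides. In aged replicate 3, where Arg1 was lowest, Pdhb was at 970, Etnk2 at 1521 and Dgat1 at 135, each the lowest aged value of that gene. For the other members likest genes were examined after their values were seen. The likest gene to Ass1 was Slc25a15 (r = 0.941), which encodes the carrier that brings ornithine into mitochondria and citrulline out. Slc25a15 counts were 3541 to 3653 in young livers, 3454 to 3815 in middle-aged livers and 3101 to 3529 in aged livers, so that no aged value reached the young ones, and the aged against young difference was -0.13 ± 0.057 (adjusted p = 0.219). All these genes were picked by r over the same livers, so low values shared with Arg1 or Ass1 come with that choice. The correlations describe 12 livers that share age groups and spike-in sets.

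The amino acid enzymes supply the cycle with nitrogen. Gls2 (chromosome 10, 128194457 to 128210004), the liver glutaminase that frees ammonia from glutamine, had counts of 4833, 5182, 4805 and 3933 in young livers, 6108, 5445, 6275 and 4962 in middle-aged livers and 4998, 4967, 3662 and 4138 in aged livers. Middle-aged replicates 1 to 3 were above all other livers, and middle-aged replicate 4 lay among the rest. The middle-aged against young difference was 0.28 ± 0.13 (adjusted p = 0.158) and the aged against middle-aged difference -0.36 ± 0.13 (adjusted p = 0.154), while aged and young differed by -0.078 ± 0.13 with an interval from -0.32 to 0.17. Gls2 shares 97 exonic bases with Spryd4 on the other strand, which had between 166 and 283 counts.

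Sds (chromosome 5, 120476526 to 120483932) converts serine to pyruvate and ammonia and is known to respond to feeding and glucocorticoids. Its counts were 350, 693, 389 and 318 in young livers, 393, 539, 511 and 374 in middle-aged livers and 401, 348, 296 and 476 in aged livers. The ages overlapped throughout, and young replicate 2 was highest. Aged against young livers differed by -0.20 ± 0.24 (adjusted p = 0.765), and the sign turned to 0.11 without young replicate 2. Sds shares 360 exonic bases with Plbd2 on the other strand, which had between 377 and 621 counts, so the 2 genes can exchange reads if strand was not used in counting, and the Sds values are uncertain to that extent.

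Hal (chromosome 10, 93488768 to 93519304) removes ammonia from histidine in the first step of its breakdown. Its counts were 4600, 3827, 3585 and 2700 in young livers, 3954, 3727, 4859 and 3148 in middle-aged livers and 4531, 4291, 3531 and 3812 in aged livers. No pair of ages was separated, and the lowest values were in young replicate 4 and middle-aged replicate 4. The fitted differences were 0.14 ± 0.16 for aged against young (adjusted p = 0.768), 0.093 ± 0.16 for middle-aged against young (adjusted p = 0.804) and 0.043 ± 0.16 for aged against middle-aged (adjusted p = 0.978). The first of these ran from 0.013 without young replicate 4 to 0.26 without young replicate 1.

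Amdhd1 and Ftcd, genes of later steps of histidine breakdown, were among the 3 genes most like Hal. Amdhd1, the imidazolonepropionase of the third step, had the highest r with Hal of all 8873 genes (0.831). Ftcd, which passes the remaining carbon to folate, had the third highest (0.797), and between them lay Atp6v1b2 (0.804). Amdhd1 lies next to Hal on chromosome 10, 93523338 to 93540033, on the opposite strand, with 4033 bases between the ends of the 2 genes. Amdhd1 counts were 1728 to 2583 in young livers, 2011 to 2646 in middle-aged livers and 2027 to 2676 in aged livers. The young and middle-aged livers lowest for Hal were also lowest for Amdhd1, which comes with its choice by r over these livers. Uroc1, the enzyme between Hal and Amdhd1, was not among the 3 genes most like Hal. It had 3047 ± 428 in young livers, 3538 ± 253 in middle-aged livers and 3671 ± 225 in aged livers (SD, n = 4 each). Its aged against young difference was 0.27 ± 0.10 (adjusted p = 0.124).

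The 250 bases before each RefSeq start (build GRCm38.p6) are shown for Hal, and for Amdhd1 and Ftcd, which were picked by their r with Hal. Hal lies at chr10:93488518-93488767 on the plus strand, Amdhd1 at chr10:93540034-93540283 on the minus strand and Ftcd at chr10:76575398-76575647 on the plus strand. Capitals mark matches on either strand to a TATA box (TATAA), a GC box (GGGCGG), an E-box (CACGTG), a C/EBP core (TTGCNNAA) or a CRE (TGACGTCA), with overlapping matches run together.
Hal: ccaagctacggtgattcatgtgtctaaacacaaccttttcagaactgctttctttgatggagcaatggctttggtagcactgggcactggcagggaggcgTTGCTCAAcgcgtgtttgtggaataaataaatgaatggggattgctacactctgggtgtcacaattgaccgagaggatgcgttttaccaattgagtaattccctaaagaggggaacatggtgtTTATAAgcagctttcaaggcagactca
Amdhd1: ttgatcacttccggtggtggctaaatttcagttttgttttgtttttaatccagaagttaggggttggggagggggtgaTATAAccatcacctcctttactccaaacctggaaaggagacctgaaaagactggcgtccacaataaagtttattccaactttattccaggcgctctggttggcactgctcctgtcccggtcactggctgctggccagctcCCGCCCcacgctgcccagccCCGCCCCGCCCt
Ftcd: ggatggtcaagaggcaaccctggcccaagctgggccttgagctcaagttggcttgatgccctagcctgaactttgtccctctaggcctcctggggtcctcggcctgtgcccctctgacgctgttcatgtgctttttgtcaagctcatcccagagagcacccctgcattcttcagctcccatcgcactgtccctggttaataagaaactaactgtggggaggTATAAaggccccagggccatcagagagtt
The Hal and Ftcd stretches hold a TATA match that begins at position -27 and -29, counted back from the start, while the match of Amdhd1 begins at -172 and its GC boxes lie between -32 and -2. Hal alone of the 3 holds a C/EBP core match. The same stretch before Uroc1 holds no match to any of these motifs. Whether the motifs bear on the shared pattern was not tested. Over 32851 promoters of the same length 22.8% hold a TATA match, 32.7% a GC box and 9.56% a C/EBP core, and the median GC content is 52.4%, beside 45.6% for Hal, 53.2% for Amdhd1 and 56.0% for Ftcd. RefSeq entries were found for 4 of the 10 members.

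Cdh1 (chromosome 8, 106603351 to 106670246) encodes E-cadherin, the adhesion protein of periportal hepatocytes and of bile duct cells. Its counts were 541, 408, 448 and 240 in young livers, 202, 218, 355 and 266 in middle-aged livers and 308, 282, 34.1 and 48.3 in aged livers. Aged replicates 3 and 4 were far below the other 10 livers, and aged replicates 1 and 2 lay within the range of the younger ones. In all 12 livers the aged against young difference was -1.28 ± 0.65 (interval -2.55 to -0.017, adjusted p = 0.305). Within set B, to which the low livers belong, aged and young livers differed by -3.06 ± 0.34 (adjusted p = 6.4e-17) and aged and middle-aged ones by -2.91 ± 0.34 (adjusted p = 4.0e-15), with a background of 4.22% and 2.47% of genes. Within set A the same differences were -0.68 ± 0.24 (adjusted p = 0.201) and 0.49 ± 0.25 (adjusted p = 1.0, background 0.307%), and middle-aged against young livers differed by -1.18 ± 0.25 (adjusted p = 0.00023, background 2.18%). The effects of age differed between the sets by -2.37 ± 0.43 for aged against young (adjusted p = 2.5e-05) and by -3.41 ± 0.43 for aged against middle-aged livers (adjusted p = 1.0e-11), where 0.732% and 0.996% of genes differed between sets. For middle-aged against young livers the sets differed by 1.03 ± 0.41, in the other direction, which did not pass (DESeq2 adjusted p = 0.597). Sets were read from the spike-ins after the files were opened, with 2 livers per age in each. The fits of Cdh1 within sets and the differences between sets were added after its values were seen. Those that involve aged livers restate the low values of aged replicates 3 and 4 and are not separate evidence.

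The low Cdh1 of aged replicates 3 and 4 was set beside other adhesion and bile duct genes, which were picked after its values were seen. Cdh2, the other cadherin of hepatocytes, had 592, 779, 845 and 731 in aged livers and rose from 514 ± 66.3 in young to 737 ± 107 in aged livers (log2 fold change 0.52 ± 0.14, adjusted p = 0.0116). The catenin genes Ctnnb1 (1428, 1664, 1559 and 1487), Ctnna1 (1119, 1096, 1166 and 1033) and Ctnnd1 (165, 120, 121 and 127) showed no drop in the aged replicates 3 and 4. The 8 cholangiocyte markers together had 283 to 355 in young livers, 120 to 454 in middle-aged livers and 226 to 418 in aged livers, and Epcam was at or near 0, with at most 8.29. In aged replicates 1 to 4 Krt7 was at 92.3, 16.4, 128 and 38.4 and Krt19 at 67.2, 12.5, 155 and 36.7. Both keratins varied widely between livers, and the part of bile duct cells in the low Cdh1 was not tested. Sox9 rose, from 44.0 ± 13.9 in young to 79.3 ± 5.06 in aged livers (0.86 ± 0.24, adjusted p = 0.0169).

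Genes most like Cdh1 over the 12 livers were Serpina1e (r = 0.969), an alpha-1-antitrypsin gene, Selenbp2 (r = 0.948), a selenium binding protein gene, and Sel1l3 (r = 0.945). Serpina1e was at 100643 and 61969 in aged replicates 1 and 2 and at 5792 and 11121 in aged replicates 3 and 4, beside at least 48160 in every younger liver. Selenbp2 was at 12748, 7331, 520 and 1055 in the 4 aged livers. These genes were picked by their r with Cdh1 over the same livers, so drops shared with Cdh1 come with that choice. Serpina1e and Selenbp2 belong to families with near-identical copies, so their single-gene counts are uncertain.

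**Figure D4:**
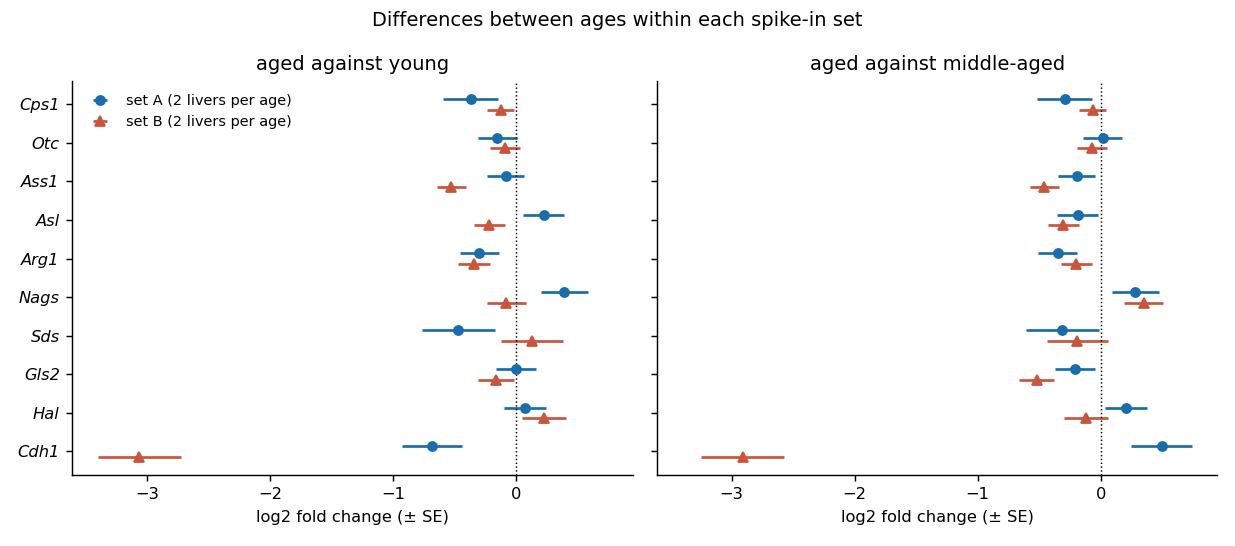
Log2 fold change ± SE for aged livers against young ones (left) and against middle-aged ones (right) within spike-in set A (circles) and set B (triangles), each with 2 livers per age. Cdh1 lies at -3.06 and -2.91 in set B and at -0.68 and 0.49 in set A, while no other member has sets more than 0.60 apart.

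Ass1 and Gls2 also passed the test within set B and not in all 12 livers. Ass1 differed by -0.53 ± 0.12 in aged against young (adjusted p = 0.00044) and by -0.46 ± 0.12 in aged against middle-aged livers (adjusted p = 0.0068), and Gls2 by -0.52 ± 0.14 in aged against middle-aged livers (adjusted p = 0.0153). In set A the corresponding values were -0.087 ± 0.15, -0.19 ± 0.15 and -0.21 ± 0.16, none of which passed. The difference between sets did not pass for either gene, at -0.44 ± 0.17 (adjusted p = 0.342) and -0.27 ± 0.17 (adjusted p = 1) for Ass1 and -0.31 ± 0.21 (adjusted p = 1) for Gls2. For Arg1 the difference between sets in aged against young livers was -0.036 ± 0.19 (adjusted p = 1.0), with -0.30 and -0.34 in the 2 sets.

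Over the 12 livers 33 of the 45 pairs of members had an r above 0, with a median of 0.286. Ass1 was at the centre of the highest values, with an r of 0.84 to Cdh1, 0.75 to Arg1, 0.74 to Gls2 and 0.73 to Asl, and Asl and Gls2 had an r of 0.75. Both mitochondrial genes of ammonia entry stood apart, since Nags had an r of at most 0.18 and Cps1 of at most 0.21 with any other member. Cps1 and Otc, which work in sequence in mitochondria, had an r of 2.0e-05. The pairs share livers, normalisation and spike-in sets, and these values are a description.

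**Figure D5:**
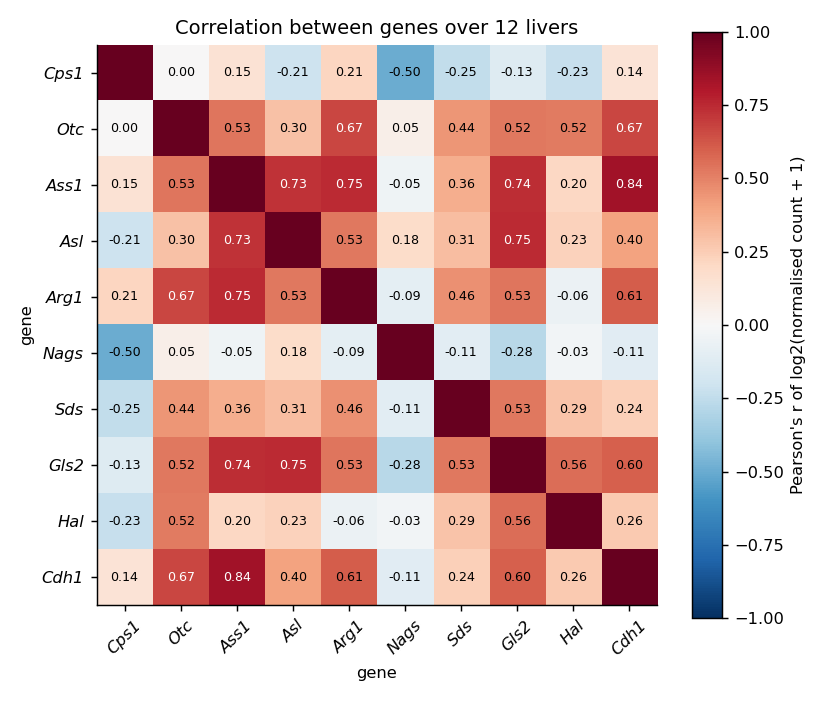
Pearson's r of log2(normalised count + 1) between the 10 genes over 12 livers, from -1 (blue) to 1 (red). Ass1, Asl, Arg1, Gls2 and Cdh1 form a block of r from 0.40 to 0.84, and Cps1 and Nags share the lowest value, -0.50.

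Genes around the cycle were counted in lists chosen by function. Of 12 tested genes of nitrogen entry and mitochondrial carriers, 0 were called between aged and young livers by DESeq2 (background 3.58%). At an unadjusted p under 0.05 lay 4, beside 15.9% of all genes tested. From young to middle-aged livers 1 rose (background 6.41%). This was Gpt2, a mitochondrial alanine aminotransferase, with 4008 ± 237 in young and 5528 ± 1022 in middle-aged livers (0.46 ± 0.13, adjusted p = 0.0120). Slc38a3, the glutamine transporter of hepatocytes, rose from 12438 ± 1144 in young to 16346 ± 1032 in middle-aged livers (0.39 ± 0.13, adjusted p = 0.0383) and was at 11000 ± 2158 in aged ones (-0.57 ± 0.13 against middle-aged, adjusted p = 0.0028). Slc38a4, a transporter of neutral amino acids, rose by 0.39 ± 0.11 (adjusted p = 0.0097) and fell by 0.40 ± 0.11 (adjusted p = 0.0249) over the same steps. Slc7a2, which takes up arginine and ornithine, fell by 0.68 ± 0.18 from middle-aged to aged livers (adjusted p = 0.0199). Slc43a1, another amino acid transporter, fell by 0.85 ± 0.24 between young and aged livers (adjusted p = 0.0160). In all, 2 of 11 genes of glutamine handling and amino acid uptake rose and 0 fell from young to middle-aged livers (background 6.41%). From middle-aged to aged livers 0 of 10 rose and 3 fell (background 1.14%).

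Of 34 genes of amino acid breakdown 3 fell and 0 rose between young and aged livers, where 3.58% of all genes were called. Among them were Tdo2, which opens the tryptophan ring (-0.45 ± 0.097, adjusted p = 0.00051), and Aadat, a transaminase of the tryptophan pathway (-0.83 ± 0.20, adjusted p = 0.0030). Aadat was already lower in middle-aged than in young livers (-0.83 ± 0.20, adjusted p = 0.0019), and Prodh, which oxidises proline, fell by 0.48 ± 0.14 from middle-aged to aged livers (adjusted p = 0.0414). The median of this list was -0.050 for aged against young.

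Of 12 tested periportal markers outside the 10, 2 rose and 0 fell between young and aged livers (background 3.58%). At an unadjusted p under 0.05 lay 4 of the 13 listed, beside 15.9% of all genes tested. Pigr, the receptor that carries immunoglobulin into bile, went from 12000 ± 320 to 17579 ± 2416 (0.55 ± 0.090, adjusted p = 7.1e-07), and Apoa4, an apolipoprotein, from 427 ± 83.7 to 1001 ± 257 (1.23 ± 0.20, adjusted p = 4.2e-07). Both also rose from young to middle-aged livers, as did Fbp1 of gluconeogenesis (0.35 ± 0.080, adjusted p = 0.0011). The list did not move as a whole. Its members Cyp2f2 (-0.35 ± 0.20, DESeq2 adjusted p = 0.393) and Pck1 (-0.80 ± 0.46, adjusted p = 0.403) were lower in aged than in young livers without passing the test. Of 12 pericentral markers 0 rose and 1 fell between young and aged livers (background 3.58%). At an unadjusted p under 0.05 lay 7 of the 12, beside 15.9% of all genes tested. The gene called was Cyp1a2 (-0.76 ± 0.16, adjusted p = 0.00037). Glul, the glutamine synthetase of pericentral hepatocytes, was at 6354 ± 604 in young and 4942 ± 517 in aged livers (-0.36 ± 0.15, adjusted p = 0.184). The medians for aged against young livers were 0.042 for the periportal and -0.32 for the pericentral list, beside -0.16 for the 10 members.

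Regulators and state genes were tabulated beside the members, since urea cycle genes are known to respond to glucocorticoids, feeding and time of day. Of 16 regulators 0 were called between aged and young livers (background 3.58%), with 3 at an unadjusted p under 0.05 beside 15.9% of all genes. From young to middle-aged livers 2 rose (background 6.41%). These were the glucocorticoid receptor Nr3c1 (0.39 ± 0.12, adjusted p = 0.0306) and the fasting regulator Ppara (0.76 ± 0.25, adjusted p = 0.0393). In the list of feeding and glucocorticoid genes 1 of 13 rose and 1 fell between young and aged livers (background 3.58%). From young to middle-aged livers 1 of 12 rose and 2 fell (background 6.41%). Igfbp1, an insulin-repressed gene, fell by 2.14 ± 0.59 between young and aged (adjusted p = 0.0147) and differed by -3.36 ± 0.60 for middle-aged against young livers (adjusted p = 5.6e-06). Srebf1, which drives fat synthesis, rose by 0.81 ± 0.20 (adjusted p = 0.0038) and Tsc22d3, a glucocorticoid target, fell by 1.04 ± 0.23 (adjusted p = 0.00068) from young to middle-aged livers. Fgf21, a hormone of nutrient stress, was called higher in aged than in young livers (5.06 ± 1.19, DESeq2 adjusted p = 0.0021). Its mean was 0.562 in young livers, below a floor of 3 counts, and 18.7 ± 10.3 in aged livers. Of the clock genes tested, 1 of 14 rose (Cry1, a repressor of the clock) and 0 fell between young and aged livers, where 3.58% of all genes were called. From young to middle-aged livers 4 of 13 rose and 1 fell (background 6.41%), and from middle-aged to aged livers 3 of 12 rose and 4 fell (background 1.14%). Dbp, an output gene of the clock, was at 178 ± 37.6 in young livers, 689 ± 167 in middle-aged livers and 100.2 ± 76.2 in aged livers, and Nfil3, which opposes it, at 329 ± 91.7, 163 ± 39.3 and 471 ± 66.4. The time of day at which livers were taken is not given, and the part of feeding state and clock phase in the member values was not tested.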

How the data were processed

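RNA-seq gene counts were analysed for 12 mouse livers, 4 at each of 3 ages, grouped by sample title. The authors deposited whole-number counts per gene in a single table without normalisation, for 53465 genes and 92 spike-ins. The submitters' processing notes list STAR 2.5.2b, SAMtools 1.9, featureCounts, R 3.6.3, edgeR 3.28.1 and DESeq2 1.26.0 and the builds mm10 and GRCm38, without their roles; the strand setting of the counting was not given in the sources used here. Symbols and positions were taken from GENCODE M21 (GRCm38), in which 53274 identifiers were found, and promoters from RefSeq (GRCm38.p6). Exonic length was the union of annotated exons.

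The counts of all genes with at least 1 count were tested with DESeq2 1.42.0 (R 4.3.3) with age group as its sole term, size factors by the median of ratios, and default independent filtering, an adjusted p under 0.05 being called. Intervals are 95% Wald intervals. Alternatives were edgeR 4.0.16 quasi-likelihood tests on genes with at least 10 counts in at least 4 livers, TMM factors, that count filter in DESeq2, a replicate block, spike-in set as a term, fits within sets and fits leaving out each liver. The edgeR filter, the fits within sets for members not called and the age by set term were added after seeing the data. The members and lists were chosen with earlier results of these data known, and lists are described by counts. Named were the 10 members, up to 5 genes per list and comparison with the smallest adjusted p under 0.05, and the 3 genes most like a called member; genes named otherwise are marked as chosen later. Of the genes this rule takes from the lists, 1 is not reported here. The fits were tested on simulated data.

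A floor of 3 counts corresponded to a CPM between 0.285 and 0.369, and the smallest count of any member was 39. Replicates of an age differed by more than sampling noise (smallest chi-square per gene 11.2 over 8888 genes). Each library was taken as 1 animal. The p-values set an age difference against the spread between libraries, which in the main fit includes any difference between the spike-in sets.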

Additional observations from a re-analysis of the deposited data

Results flagged for a closer look

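Single livers were checked for distance from the other 3 of their age in 30 groups (10 genes at 3 ages) by Dixon's ratio, the gap to the nearest other liver divided by the range, against its 95% critical value. Chance flags about 1 in 20 such groups, or 1.5 of 30, and 2 were found. Cps1 in aged replicate 1 was at 24853, below the other aged livers at 31572 to 32646 (ratio 0.862). Ass1 in middle-aged replicate 4 was at 40165, below the others at 49361 to 50739 (ratio 0.870).

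The effect of age on Cdh1 differed between the spike-in sets by a DESeq2 interaction term. In set B minus set A it was -2.37 on the log2 scale for aged against young livers (adjusted p = 2.5e-05) and -3.41 for aged against middle-aged livers (adjusted p = 1.0e-11), with 2 livers per age in each set. The set and the individual animals cannot be told apart at this number.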

How the results depend on the processing

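TMM factors and the filter on low counts kept the direction and the side of the threshold of all 30 differences (10 members in 3 comparisons). Of all alternative values 521 kept both, 32 turned in sign, 8 passed the threshold newly and 9 lost it, and none of those that turned had been called.

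For aged against young livers, 1 member was called, against 0 with edgeR, 0 within set A, 2 within set B (Ass1 and Cdh1) and 0 to 2 when 1 liver was left out. For middle-aged against young livers the count of 0 became 1 within set A (Cdh1). For aged against middle-aged livers it became 3 within set B (Ass1, Cdh1 and Gls2) and 0 to 1 without 1 liver, where aged replicate 1 gave the call of Ass1. Across the 3 ages the count of 1 became 0 with edgeR, 3 with set as a term (Arg1, Ass1 and Gls2, beside 7.1% of all genes), 3 within set B (Ass1, Cdh1 and Gls2, beside 5.13%) and 0 to 4 without 1 liver, the highest without aged replicate 1 (beside 13.3%). Within set A it stayed 1, but the gene was Cdh1 and not Arg1 (beside 2.01%).

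With the replicate block the count across the 3 ages was 0, and Asl in aged against young livers turned from 0.012 to -0.0045. The replicate numbers do not pair the livers, which are different animals; deviations of same-numbered livers had an r from -0.30 to 0.16.

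Signs also turned for Asl in aged against young livers with set as a term (-0.0016) and within set B (-0.22), Nags (-0.081) and Sds (0.13) in the same comparison within set B, and Ass1 in middle-aged against young livers within set B (-0.071). Within set A they turned for Arg1 (0.046), Nags (0.11), Sds (-0.16) and Hal (-0.13) in middle-aged against young and for Otc (0.015) and Cdh1 (0.49) in aged against middle-aged livers, and within set B for Hal (-0.12) in the latter. Without 1 liver, aged against young values ran from -0.098 to 0.10 for Asl, -0.33 to 0.11 for Sds and -0.15 to 0.0037 for Gls2. Middle-aged against young values ran from -0.15 to 0.060 for Cps1, -0.011 to 0.096 for Ass1, -0.11 to 0.0027 for Arg1, -0.068 to 0.37 for Sds and -0.029 to 0.22 for Hal. Aged against middle-aged values ran from -0.063 to 0.037 for Otc and -0.049 to 0.16 for Hal. The cause was not tested.

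Counts of all genes called also moved by more than 1.5 times with edgeR, from 484 to 170 for aged against young, 727 to 281 for middle-aged against young, 117 to 13 for aged against middle-aged and 865 to 230 across ages. The block gave 385 for middle-aged against young, 426 for aged against middle-aged and 451 across ages, set A 137, 251, 34 and 270, and set B 305 for middle-aged against young and 307 for aged against middle-aged. Without 1 liver the counts ran from 237 to 1291, 345 to 1095, 45 to 198 and 496 to 1637, in the same order.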
